A study of Mus musculus with 12 samples.

Results

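The 10 genes described here form the core of the circadian clock as it is read from RNA: the activators Clock and Arntl (BMAL1), the repressors Per1, Per2, Per3, Cry1 and Cry2, the nuclear receptors Nr1d1 and Nr1d2 (REV-ERB alpha and beta), and the output factor Dbp. They were taken by symbol from a table of 21839 genes counted in 12 RNA-seq libraries of sorted mouse CD4 T cells, and all 10 were found. The set was chosen because Per2 was lower in 1 of the 4 groups, the transgenic CD25 Low cells, so differences between genotypes in CD25 Low cells are given below as a description with no test. All 10 genes were among the 11766 genes with enough counts to be tested.

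In the clock loop, the CLOCK and BMAL1 proteins bind E-boxes in DNA and switch on the Per, Cry, Nr1d and Dbp genes. PER and CRY proteins return to the nucleus and repress CLOCK and BMAL1, while REV-ERB proteins repress Arntl through ROR elements and DBP acts on D-boxes. Most cells of the body, lymphocytes among them, run this loop, and the RNA levels of several of its genes rise and fall over the day. The hour at which tissue was collected is not given in the sources used here.

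All mice were C57BL/6 and carried loxP-flanked Atg5 alleles (Atg5 flox/flox), Atg5 being a gene needed for autophagy. WT littermates lacked Cre (CD11c Cre -/-), and TG mice carried it (CD11c Cre +/-), which removes Atg5 in cells that express CD11c, mainly dendritic cells. Whether Atg5 was intact in the T cells sorted here was not examined. The T cells were taken from spleen and from lymph nodes (brachial, cervical and inguinal), enriched for CD4, and sorted as CD62L+ with either high or low CD25, the interleukin-2 receptor alpha chain. The labels call both sorts regulatory T cells and name no Foxp3 stain. Crossing genotype and sort gives 4 groups, named WT High, WT Low, TG High and TG Low, each with 3 libraries numbered 1 to 3. No label says whether the libraries of a group are from different animals, and p-values then measure only the spread between these libraries, which may be technical.

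Total counts ranged from 6767828 in TG High replicate 2 to 23942479, and 12370 to 14164 genes had at least 1 count in a library. The 4 CD4 T cell markers summed to between 2648 and 3570 CPM (counts scaled to a common library total), with all 4 counted in every library. The 4 regulatory T cell markers (Foxp3, Il2ra, Ctla4 and Ikzf2) summed to 2923 to 3377 CPM in the CD25 High libraries and to 1933 to 2241 CPM in the CD25 Low libraries. Il2ra encodes CD25, on which the cells were sorted, so its part of that difference was set by the sort. Mean Il2ra was 1190 CPM in WT High against 589 CPM in WT Low, and 1183 against 593 CPM in TG. Mean Foxp3 and Ctla4 were also higher in CD25 High in both genotypes. Mean Ikzf2 was 217 against 191 CPM in WT, but lower in High in TG, at 187 against 215 CPM. The libraries numbered 1 stood apart by sums of markers. There 6 B cell markers summed to 154 to 259 CPM against 30.6 to 69.8 CPM in the others. The 4 proliferation markers summed to 95.1 to 205 against 7.39 to 28 CPM. The 8 myeloid or dendritic cell markers summed to 18.2 to 112 against 7.93 to 16.7 CPM, and 6 CD8 T or NK cell markers to 75.6 to 90.2 against 32.6 to 47.6 CPM. Not every marker of the last 2 lists was higher there. Nkg7 had means of 36.3, 7.94 and 7.3 CPM in numbers 1, 2 and 3, but Cd8b1 had 32.5, 28.3 and 31 CPM. In WT High replicate 1, Itgam alone had 14.7 CPM of the myeloid or dendritic cell sum. Cd68 was at 1.29 CPM there, against 1.69 and 1.96 CPM in WT High replicates 2 and 3. In bulk RNA, fewer cells of a type and less RNA per cell cannot be told apart.

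The sequences below are the 250 bases before the RefSeq start sites (GRCm38.p6) of 3 clock genes whose windows hold a motif of the loop (240 for Cry1, without the 10 bases next to the start, which lie inside its GENCODE gene), together with the part of the Dbp window that lies before its GENCODE start, shown because Dbp is the clock gene that differed most regularly between the CD25 sorts. Each is written 5′ to 3′ on the gene's strand, and capitals mark a motif.
Per1 (chr11:69098699-69098948, plus strand): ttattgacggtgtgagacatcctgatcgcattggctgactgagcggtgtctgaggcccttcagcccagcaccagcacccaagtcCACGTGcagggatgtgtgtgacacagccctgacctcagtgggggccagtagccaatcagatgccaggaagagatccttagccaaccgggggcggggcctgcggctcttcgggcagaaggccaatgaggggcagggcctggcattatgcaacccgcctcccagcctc
Cry1 (chr10:85185065-85185304, minus strand): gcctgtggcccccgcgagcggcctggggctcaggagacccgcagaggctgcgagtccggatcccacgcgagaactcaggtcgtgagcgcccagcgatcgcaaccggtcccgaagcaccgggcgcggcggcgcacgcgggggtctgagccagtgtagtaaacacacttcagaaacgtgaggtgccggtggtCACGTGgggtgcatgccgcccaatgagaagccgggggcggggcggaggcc
Per3 (chr4:151044666-151044915, minus strand): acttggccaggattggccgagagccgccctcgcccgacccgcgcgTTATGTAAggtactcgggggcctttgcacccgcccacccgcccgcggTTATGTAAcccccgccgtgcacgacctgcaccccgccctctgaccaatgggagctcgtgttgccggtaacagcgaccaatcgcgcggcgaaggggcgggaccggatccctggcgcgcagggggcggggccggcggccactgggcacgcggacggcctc
Dbp (chr7:45704997-45705087, plus strand): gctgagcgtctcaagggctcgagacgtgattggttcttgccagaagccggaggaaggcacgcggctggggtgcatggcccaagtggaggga
Of the 10 genes, 9 had a window in the RefSeq table; Per2 was not among them. The E-box CACGTG, the site of CLOCK and BMAL1, stood 166 bases before the RefSeq start of the Per1 window shown and 60 bases before that of Cry1, and 6.86% of the 27025 genes in the table have it in such a window. Per1 has 2 windows in the table: the one shown lies inside the longer GENCODE gene, and the other (chr11:69099902-69100151) holds no E-box. The D-box, searched as TTATGTAA or TTACGTAA on both strands, occurred 205 and 158 bases before the Per3 start and in 1.1% of genes. No window of the 9 genes held the ROR element core (TAGGTCA or TGGGTCA, 6.15% of genes) or the cyclic AMP response element TGACGTCA (1.77% of genes). A match is a string of letters and shows no binding, and a window without one says only that these letters were not in it.

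The highest and lowest clock genes differed more from each other in level than each did between libraries. Several genes next to each other in level did not. Levels per kilobase of exon, which allow genes to be compared, had the highest median over the 12 libraries for Cry1, a CRY repressor, at 24.8 CPM per kilobase. Dbp followed at 16.4 CPM per kilobase. Nr1d2 stood at 7.22, Cry2 at 7.06, Arntl at 6.09 and Per1 at 5.34 CPM per kilobase, and the ranges of neighbours in this order overlapped. Per2 at 2.17, Nr1d1 at 1.65 and Clock at 1.55 CPM per kilobase came next, again with overlapping ranges between neighbours. Per3 was lowest at 0.251 CPM per kilobase, with 11 to 67 raw counts in a library. The ranges over the libraries did not overlap between Cry1 and Dbp, between Dbp and Nr1d2, between Per1 and Per2, or between Clock and Per3.

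**Figure D1:**
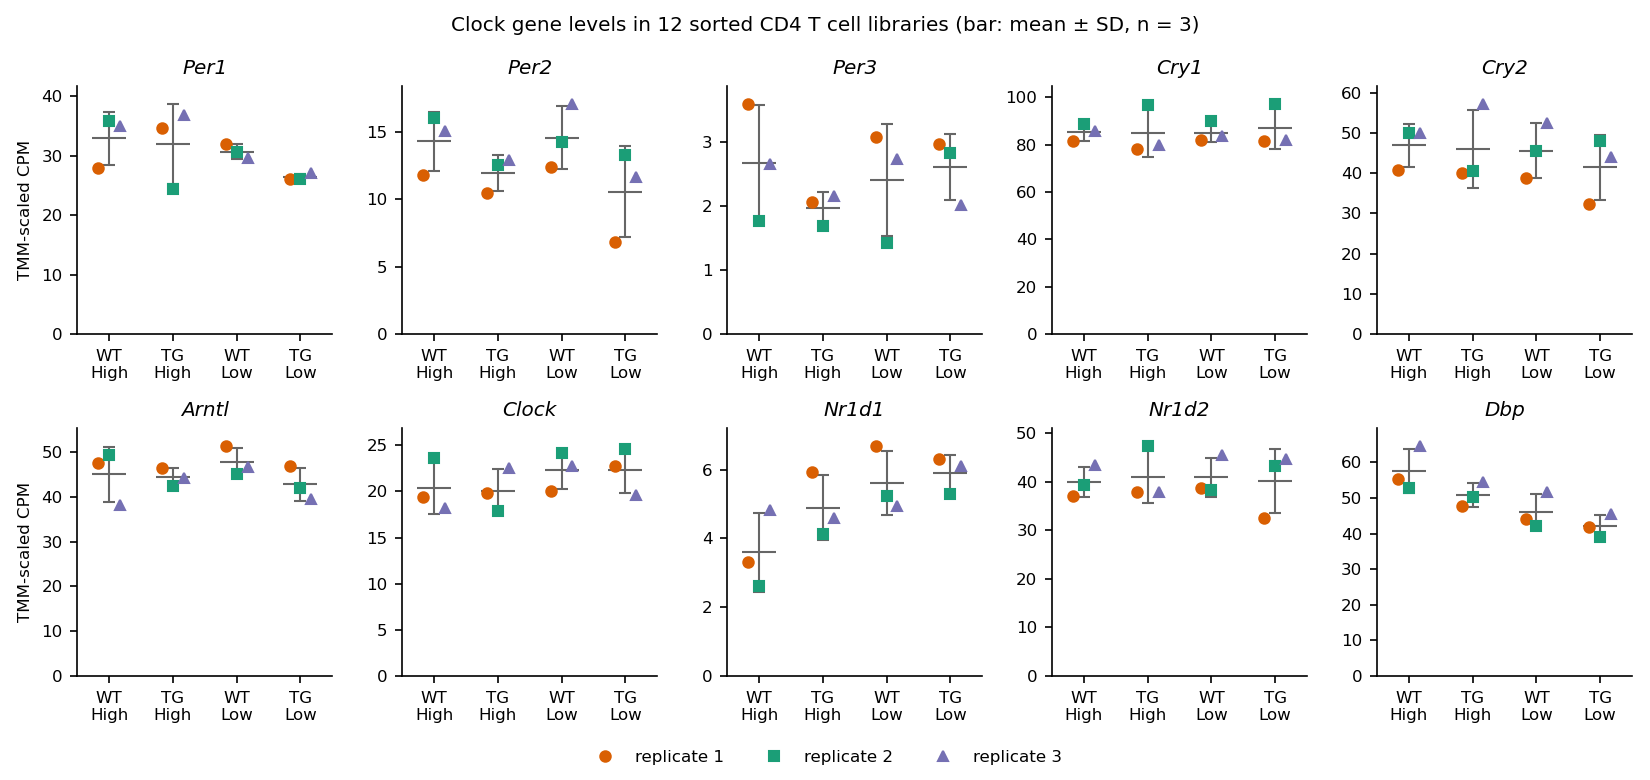
CPM of each clock gene in every library (points, marker shape for the replicate number) with the group mean and SD (n = 3), one panel per gene with its own linear axis from 0. Cry1 lies between 78.3 and 97 CPM in all 12 libraries, while Per2 falls to 6.81 CPM in TG Low replicate 1.

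The ratio of the highest to the lowest library was smallest for Cry1, at 1.24. It was 1.35 for Arntl, 1.38 for Clock, 1.45 for Nr1d2, 1.51 for Per1, 1.65 for Dbp and 1.77 for Cry2. Per2 (2.5), Per3 (2.53) and Nr1d1 (2.55) had the widest ranges, and these 3 were the clock genes with the lowest raw counts, at 82 to 380, 11 to 67 and 27 to 130 per library. The median SD of log2 CPM over the libraries was 0.203 for the 10 clock genes and 0.194 for all tested genes. Among genes with a median of at least 10 CPM it was 0.18 for 8 clock genes and 0.157 for 8376 genes.

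Per1 is known as both a clock gene and a gene induced within minutes by cyclic AMP, glucocorticoids and stress, and the libraries differed in genes of that kind, 4 of which are named here after their values were seen. Fos, an immediate early transcription factor, ran from 10.5 to 810 CPM, a ratio of 77.5. Ppp1r15a, a stress-induced phosphatase subunit, had a ratio of 14.2, Dusp1, a glucocorticoid- and stress-induced phosphatase, of 13, and the chaperone Hsph1 of 6.96. Not all such genes varied as widely: over the 11 cyclic AMP and immediate early genes the ratio ran from 1.55 for Egr1, with Crem at 1.65 and Ier2 at 1.93, to the 77.5 of Fos. Per1 itself stayed between 24.3 and 36.8 CPM in the same libraries, a ratio of 1.51. Its lowest library, TG High replicate 2, and its highest, TG High replicate 3, were also those of Junb, Sik1, Ppp1r15a and Ier2. The remaining cyclic AMP and immediate early genes had another lowest or highest library. Whether Per1 varied with these genes was not tested.

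**Figure D2:**
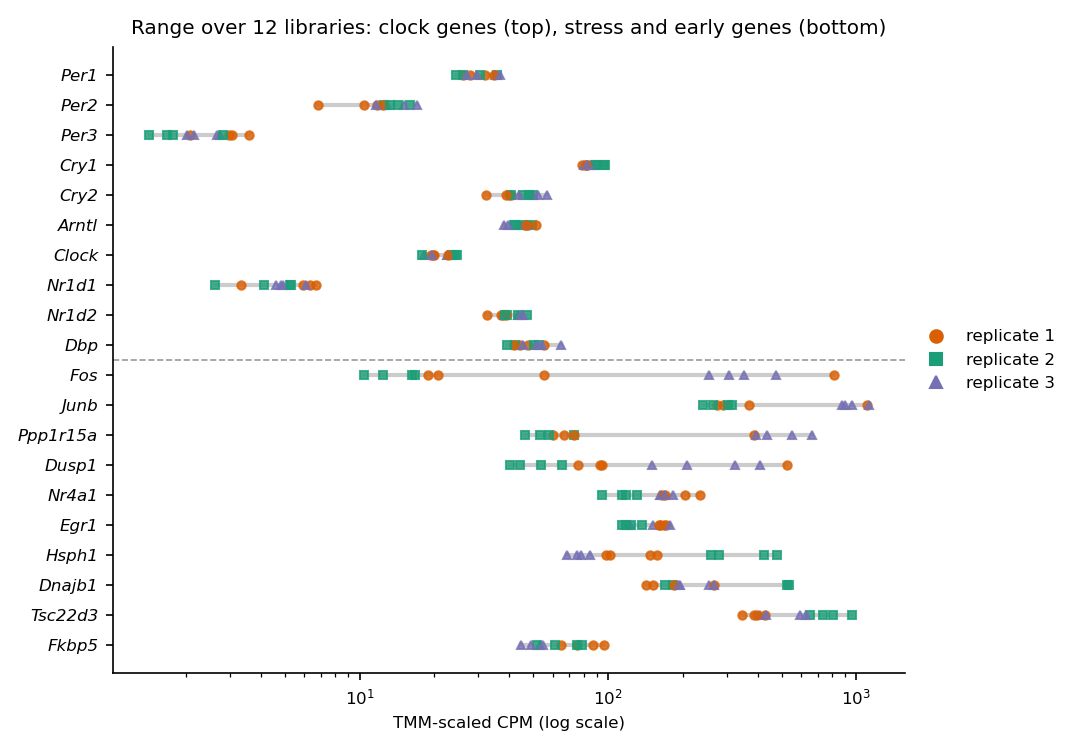
CPM (log axis) in each of the 12 libraries, marker shape and colour for the replicate number, for the 10 clock genes above the dashed line and for 10 immediate early, heat shock and glucocorticoid-induced genes below it, which were chosen after their values were seen; grey lines join the lowest and highest library. Per1 spans 24.3 to 36.8 CPM and Fos 10.5 to 810 CPM.

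Among the activators, Arntl ranged from 38.1 CPM in WT High replicate 3 to 51.3 CPM in WT Low replicate 1, and Clock from 17.9 to 24.6 CPM. Neither gene separated any pair of groups compared. In CD25 High cells Arntl had a mean of 45 ± 6.07 CPM (SD, n = 3) in WT and 44.4 ± 2.03 CPM in TG, and in CD25 Low cells 47.8 ± 3.15 and 42.8 ± 3.69 CPM. Clock had means of 20.4 ± 2.82, 20.1 ± 2.34, 22.3 ± 2.09 and 22.3 ± 2.54 CPM in the same order.

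Whether loss of Atg5 in CD11c-expressing cells goes with other clock gene levels was asked first in the CD25 High cells. The stated reason for the choice of genes did not use these cells, but earlier results of these data were known when the genes were chosen. No difference between TG and WT was detected for a clock gene there, at this number of libraries: 0 of 10 passed an adjusted p of 0.05 in edgeR's quasi-likelihood test, as did 0% of all 11766 genes, and both counts were 0 with DESeq2 and with a block for the replicate number too. At an unadjusted p under 0.05, 0 of the 10 and 99 genes overall (0.841%) passed, and in the blocked fit 1 of the 10 and 418 overall (3.55%). In CD25 High, TG and WT overlapped for all 10, while 1.98% of genes had TG above WT and 2.29% TG below WT without overlap. The median log2 difference was -0.02 over the clock genes and 0.01 over all genes. A p that misses the threshold does not show that levels were alike, and the intervals below give the sizes the data allow.

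Per2, a repressor of the loop, stood at 11.8, 16 and 15 CPM in WT High replicates 1, 2 and 3 and at 10.4, 12.6 and 12.9 CPM in TG High. The groups overlapped, though every TG library was below the WT library of its number. The log2 difference, TG minus WT, was -0.26 (SE 0.24, 95% interval -0.77 to 0.26, edgeR adjusted p = 1). Nr1d1, which represses Arntl, gave the positive difference farthest from 0: its WT High libraries had 3.32, 2.61 and 4.84 CPM and its TG High libraries 5.94, 4.13 and 4.6 CPM. The groups overlapped, and the log2 difference was 0.45 (SE 0.27, 95% interval -0.13 to 1.03, adjusted p = 1). Per3 had a log2 difference of -0.43, negative in 3 of 3 pairs (SE 0.37, 95% interval -1.23 to 0.38, adjusted p = 1) at under 4 CPM in every library. Dbp, at 55.2, 52.9 and 64.5 CPM in WT High and 47.7, 50.2 and 54.4 CPM in TG High, had a log2 difference of -0.18, negative in 3 of 3 pairs (SE 0.11, 95% interval -0.43 to 0.07, adjusted p = 1). The block gave Dbp an unadjusted p of 0.0426, still with an edgeR adjusted p of 0.999. For the other 6 clock genes the log2 difference lay between -0.03 and 0.03, with 95% intervals reaching no farther than -0.43 and 0.37.

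In the CD25 Low cells, where the choice was made, Per2 had 12.4, 14.2 and 17 CPM in WT replicates 1, 2 and 3 and 6.81, 13.3 and 11.6 CPM in TG. Each TG library was below the WT library of its number, as for 11% of all genes, but TG Low replicate 2 was above WT Low replicate 1, so the groups overlapped. The log2 difference was -0.46, 1.38-fold lower in TG. By pair it was -0.86, -0.1 and -0.55, and leaving out 1 library at a time moved the fitted value between -0.66 and -0.23. The library with the lowest Per2, TG Low replicate 1, is also the one with the highest sums of B cell (259 CPM) and myeloid or dendritic cell (112 CPM) markers; their part in the level was not tested. Over all genes 0% passed an adjusted p of 0.05 in this comparison, and 48 genes (0.408%) passed an unadjusted p of 0.05.

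Per1 had 32, 30.5 and 29.6 CPM in WT Low and 26.1, 26.2 and 27 CPM in TG Low, so the groups did not overlap, as for 1.72% of all genes in that direction. Its log2 difference was -0.22 in CD25 Low. In CD25 High, Per1 had 27.9, 35.9 and 35 CPM in WT and 34.7, 24.3 and 36.8 CPM in TG, overlapping, with a log2 difference of -0.03. For the other clock genes in CD25 Low the log2 differences were -0.16 for Arntl, -0.14 for Cry2, -0.13 for Dbp, -0.03 for Nr1d2, 0 for Clock, 0.03 for Cry1, 0.07 for Nr1d1 and 0.11 for Per3, and in all 8 the groups overlapped.

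Counted over the 6 same-numbered pairs of both sorts, TG was below WT in 6 of 6 for Per2 and for Dbp, which 2% of all genes show. For Per3 and Arntl it was below in 5 of 6, for Per1, Cry1 and Cry2 in 4 of 6, for Nr1d2 in 3 of 6, and for Clock and Nr1d1 in 2 of 6. For Per2 the 3 pairs from CD25 Low are those that led to its choice. The difference of its genotype effects, CD25 High minus CD25 Low, was 0.2 on the log2 scale, and leaving out 1 library at a time moved it between -0.03 and 0.4.

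**Figure D3:**
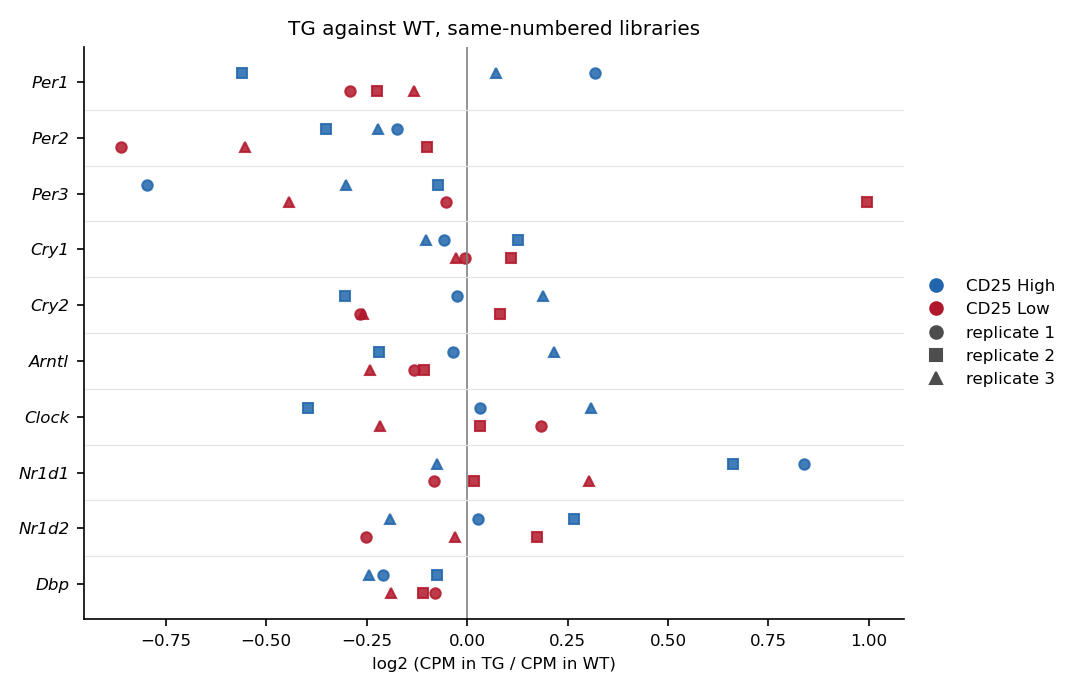
log2 ratio of CPM in TG to CPM in WT for same-numbered libraries, in CD25 High (blue) and CD25 Low (red), marker shape for the replicate number. Per2 and Dbp lie left of 0 in 6 of 6 pairs, and the CD25 Low values of Per2 are -0.86, -0.1 and -0.55.

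Between the CD25 sorts, Dbp was the clock gene that differed most regularly. Dbp is an activator of the PAR bZIP family whose own gene is driven by CLOCK and BMAL1. WT High libraries had 55.2, 52.9 and 64.5 CPM and WT Low libraries 44.2, 42.2 and 51.8 CPM, in the order of their numbers. TG High libraries had 47.7, 50.2 and 54.4 CPM and TG Low libraries 41.8, 39.1 and 45.4 CPM. High lay above Low without overlap in WT, as for 4.49% of all genes, and in TG, as for 4.22%; 1.33% of genes did so in both. High was above Low in 6 of 6 same-numbered pairs, as for 7.02% of genes. The means were 57.5 ± 6.12 against 46.1 ± 5.03 CPM in WT and 50.8 ± 3.37 against 42.1 ± 3.15 CPM in TG (SD, n = 3).

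The log2 difference of Dbp, High minus Low, was 0.32 in WT (SE 0.11, 95% interval 0.08 to 0.56, edgeR adjusted p = 0.985) and 0.27 in TG (SE 0.11, 95% interval 0.02 to 0.52, adjusted p = 0.917). It therefore did not pass in either genotype, and blocked on the replicate number its edgeR adjusted p was 0.0612 in WT and 0.142 in TG. Averaged over both genotypes with that block, a fit added after these values were seen, the difference was 0.29 (SE 0.06, 1.23-fold, 95% interval 0.17 to 0.42) with an edgeR adjusted p of 0.0057. In that fit 692 genes passed (5.88%), and 1 of the 9 clock genes tested did; without the block Dbp had an edgeR adjusted p of 0.176 and 61 genes passed (0.518%). Leaving out any 1 library kept the edgeR adjusted p between 0.00966 and 0.0238, and leaving out the 4 libraries numbered 1 gave a log2 difference of 0.31 and an edgeR adjusted p of 0.106.

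The exons of Dbp share 539 bases (18.01% of its exon length) with Sphk2, a sphingosine kinase gene on the opposite strand, and the library chemistry does not mark strand. Sphk2 itself differed between the sorts by -0.01 on the log2 scale in WT and -0.06 in TG (edgeR adjusted p = 1 and 0.999). Some markers of other cells also moved with the sort. Of the 6 CD8 T or NK cell markers, Ncr1, Klrd1 and Klrk1 were lower in CD25 High in the averaged, blocked fit (edgeR adjusted p = 0.00067, 0.0082 and 0.000355). In the libraries numbered 2 and 3 they averaged 0.708 and 0, 0.289 and 0.0833, and 0.286 and 0.0231 CPM. Cd8b1 and Nkg7 had higher means in CD25 High, at 31.2 against 28.2 and 18.6 against 14 CPM in WT. In TG they had 32 against 30.9 and 19.8 against 16.5 CPM. Mean Cd8a was higher in CD25 High in WT and lower in TG. Of the 4 proliferation markers Top2a was higher in that fit (edgeR adjusted p = 0.00184). Of the 8 myeloid or dendritic cell markers, Csf1r was lower (edgeR adjusted p = 0.0225), and of the 6 B cell markers none passed. Summed, the CD8 T or NK cell markers ran from 37.4 to 78.7 CPM in High against 35.1 to 77.1 CPM in Low for WT, and for TG from 43.9 to 75.6 against 32.6 to 90.2 CPM. Proliferation markers ran from 9.98 to 156 against 7.39 to 95.1 CPM in WT, and from 10.7 to 205 against 7.63 to 122 CPM in TG. Myeloid or dendritic cell markers ran from 11.8 to 18.2 against 10.1 to 61.9 CPM in WT and from 8.88 to 36.8 against 7.93 to 112 CPM in TG. The part of such cells in the differences of Dbp and of Nr1d1 was not tested.

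Nr1d1 differed in the opposite direction. Its WT High libraries had 3.32, 2.61 and 4.84 CPM and its WT Low libraries 6.67, 5.24 and 4.94 CPM, without overlap, as for 4.37% of genes with High below Low. In TG, 5.94, 4.13 and 4.6 CPM in High overlapped with 6.3, 5.3 and 6.09 CPM in Low. High was below Low in 6 of 6 pairs, as for 7.32% of genes. The log2 difference was -0.64 in WT (SE 0.26, 95% interval -1.22 to -0.07, edgeR adjusted p = 1, or 0.235 with the block) and -0.26 in TG (SE 0.27, 95% interval -0.84 to 0.31, adjusted p = 0.999). Averaged with the block it was -0.46, with an edgeR adjusted p of 0.109. Leaving out 1 library at a time moved that adjusted p between 0.0282 and 0.285, and only the fit without WT High replicate 3 passed. Leaving out the 4 libraries numbered 1 gave a log2 difference of -0.44 and an edgeR adjusted p of 0.539. Nr1d1 has 27 to 130 counts per library and shares 263 exon bases (8.55%) with Thra, a thyroid hormone receptor gene on the opposite strand, whose difference was -0.21 in WT and -0.26 in TG (edgeR adjusted p = 1 and 0.999).

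**Figure D4:**
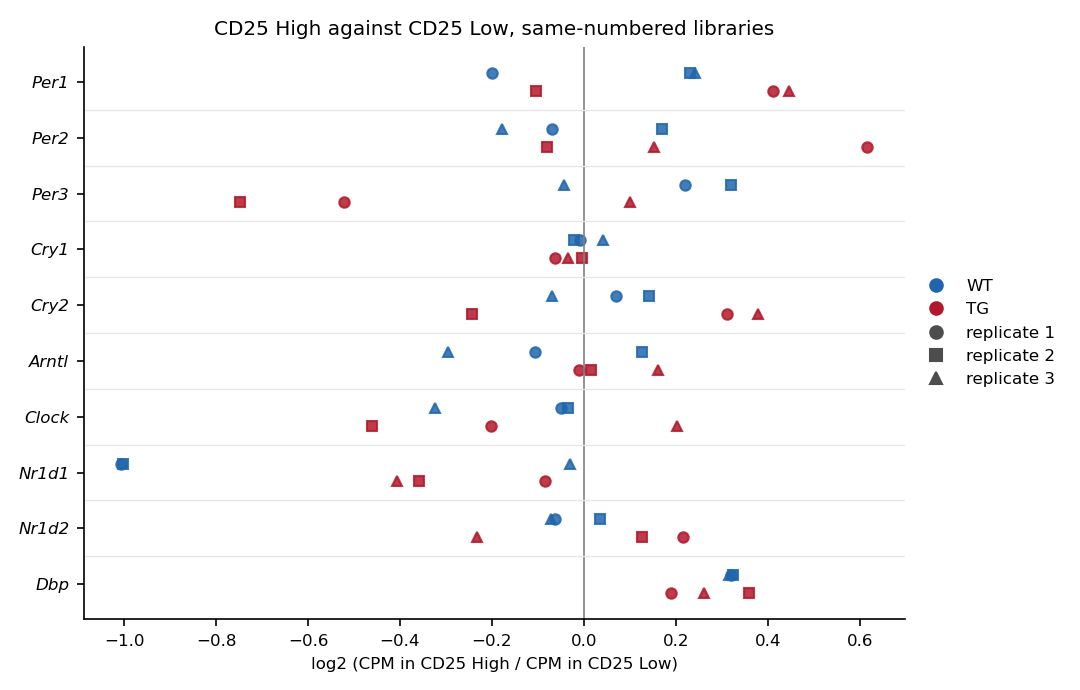
log2 ratio of CPM in CD25 High to CPM in CD25 Low for same-numbered libraries, in WT (blue) and TG (red), marker shape for the replicate number. Dbp lies between 0.19 and 0.36 in all 6 pairs and Nr1d1 below 0 in all 6.

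Counted over the 9 clock genes whose sorts could be compared by a test (Per2 was chosen on the CD25 Low libraries), 0 passed in WT and 0 in TG, against 6 genes (0.051%) and 1 gene (0.0085%) of 11766. With the block it was still 0 and 0, against 192 genes (1.63%) and 198 genes (1.68%). At an unadjusted p under 0.05, Dbp and Nr1d1 passed in WT and Dbp in TG, against 3.32% and 4.91% of all genes. Over all 10, the median log2 difference was -0.01 in WT and 0.04 in TG, against 0 and 0 over all genes. Per1 had log2 differences of 0.1 in WT (95% interval -0.22 to 0.42) and 0.28 in TG (-0.04 to 0.61), neither of which passed. Per3, at 2.07, 1.68 and 2.16 CPM in TG High and 2.97, 2.83 and 2.01 CPM in TG Low, had the log2 difference farthest from 0 in TG, -0.39 (SE 0.37, 95% interval -1.2 to 0.42, edgeR adjusted p = 0.999). In WT it had 3.59, 1.77 and 2.66 CPM in High and 3.08, 1.42 and 2.74 CPM in Low, a log2 difference of 0.14 (SE 0.36, 95% interval -0.65 to 0.94, adjusted p = 1). Its groups overlapped in both genotypes, at 11 to 67 counts per library. Cry1, Cry2, Arntl, Clock and Nr1d2 had log2 differences between -0.15 and 0.15. Per2 had log2 differences of -0.03 in WT and 0.18 in TG.

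In the wider clock pathway, no gene of the following lists passed between the sorts without the block in a single genotype. Among PAR bZIP factors with their opponent Nfil3 (3 of 3), further repressors (4 of 5) and clock kinases, ligases and proteases (9 of 9), 0 passed in WT or TG with the block as well. Hlf, a relative of Dbp, passed in the fit averaged over genotypes with the block, with a log2 difference of -1.85 (edgeR adjusted p = 0.0147), at under 1 CPM in every library. Of 9 glucocorticoid-induced genes tested, 1 passed with the block in each genotype, against 1.63% of all genes in WT and 1.68% in TG. It was Sgk1, a kinase gene, lower in CD25 High by 0.67 on the log2 scale in WT (edgeR adjusted p = 0.00198) and by 0.64 in TG (adjusted p = 0.00423). Sgk1 did not overlap between the sorts in WT, as for 4.37% of genes with High below Low, or in TG, where that share is not given here. Its group means were 38.4 CPM in WT High and 39.3 CPM in TG High, against 61.4 and 61.6 CPM in the CD25 Low groups.

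Libraries with the same number varied together, and several clock genes varied with the number. In edgeR's test for a difference between the 3 numbers, with the 4 groups held constant, 3 of 10 clock genes passed, against 4030 of all genes (34.3%), a share near that of the clock genes. They were Cry2 (adjusted p = 0.0075), Per2 (adjusted p = 0.0184) and Dbp (adjusted p = 0.0352). For Per2 the test includes the TG Low libraries on which it was chosen, so it is not independent of that choice. Mean Per2 was 10.4 CPM in the libraries numbered 1, 14 in those numbered 2 and 14.1 in those numbered 3. Mean Cry2 was 38, 46 and 50.9 CPM and mean Dbp 47.2, 46.1 and 54 CPM in the same order. Without the 4 libraries numbered 1, in which B cell, myeloid, CD8 T or NK cell and proliferation markers summed higher, 0 of the 10 passed, against 934 of 11562 genes. The log2 difference between the libraries numbered 3 and 2 was then 0.23 for Dbp (edgeR adjusted p = 0.116), the same size as with all libraries, 0.13 for Cry2 (0.474) and 0 for Per2 (0.998); the part of those cells in the result was not tested. Per2 no longer passed without TG Low replicate 1 (edgeR adjusted p = 0.108), and Dbp did not in 9 of the 12 fits without 1 library.

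**Figure D5:**
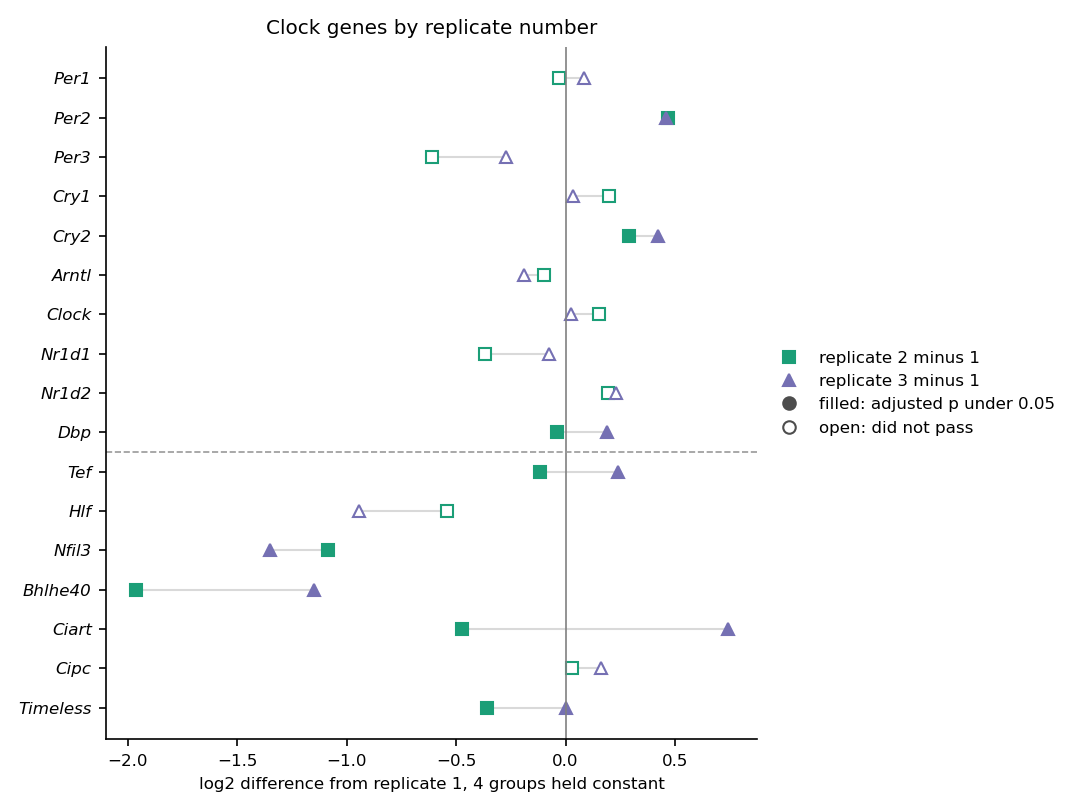
Fitted log2 differences of the libraries numbered 2 (squares) and 3 (triangles) from those numbered 1, with the 4 groups held constant, for the clock genes above the dashed line and further clock pathway genes below it; filled markers passed edgeR's test over the 3 numbers. Per2 lies at 0.47 and 0.46, Cry2 at 0.29 and 0.42, and Bhlhe40 at -1.96 and -1.15.

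Rora, a receptor that activates Arntl through ROR elements, also passed this test (edgeR adjusted p = 1.08e-05), with a mean of 47.2 CPM in the libraries numbered 1 against 22.7 and 21.3 CPM. So did Npas2, a relative of Clock (edgeR adjusted p = 0.0209), at 0.965, 0.506 and 0.272 CPM. Among PAR bZIP factors with their opponent Nfil3, the same test passed 2 of 3, Tef and Nfil3 itself. It passed 3 of 4 further repressors (Bhlhe40, Timeless and Ciart) and 4 of 9 kinases, ligases and proteases. Bhlhe40, a repressor at E-boxes, had means of 28.4, 7.22 and 13 CPM. The test also passed 6 of 9 glucocorticoid-induced genes, 8 of 11 cyclic AMP and immediate early genes, and 6 of 11 heat shock genes. These short lists are set against the 34.3% of all genes, and nothing particular to a list is read from them.

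Genes whose log2 CPM followed a clock gene most closely over the 12 libraries were named by Pearson r as a description. The libraries share groups and numbers and differ in depth. For Per2 they were Pcyt2 (r = 0.94), Ndor1 (0.92), Nfx1 (0.9), Il17ra (0.9) and Ccdc137 (0.9). For Arntl they were Vdac3 (r = 0.88), Ikzf3 (0.79), Prcc (0.79), Gnpda1 (0.72) and Slc17a5 (0.72). Among the clock genes themselves, Per2 and Cry2 had r = 0.82, and Per2 and Arntl r = -0.11.

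The 10 genes lie on 8 chromosomes (GRCm38, GENCODE vM21, all protein coding). Per1 is at chr11:69095217-69109960 on the plus strand, Per2 at chr1:91415982-91459324 on the minus strand and Per3 at chr4:151003652-151044665 on the minus strand. Cry1 is at chr10:85131700-85185064 and Cry2 at chr2:92403646-92434043, both on the minus strand. Arntl is at chr7:113207465-113314126 on the plus strand and Clock at chr5:76209868-76304792 on the minus strand. Nr1d1 is at chr11:98767932-98775333 and Nr1d2 at chr14:18204054-18239127, both on the minus strand, and Dbp is at chr7:45705088-45710203 on the plus strand.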

How the data were processed

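RNA-seq counts per gene were analysed for 12 libraries (4 groups of 3). The deposited values are raw read counts: per the submitters' processing notes the authors used CASAVA 1.8.2, STAR 2.4 and featureCounts 1.4.6 on GRCm38, with settings not given in the sources used here. Per the labels' protocols, RNeasy Mini RNA was amplified from 10 ng with the SMARTer Ultra Low kit, and per the design text libraries were made with Nextera XT. Genes were matched by Ensembl identifier to GENCODE vM21 symbols (21628 of 21839 matched).

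Counts were tested with edgeR 4.0.16 in R 4.3.3 (TMM scaling, filterByExpr with a minimum count of 10, robust quasi-likelihood fit of the 4 group means over all 12 libraries, Benjamini-Hochberg adjustment over 11766 genes, threshold 0.05), with CPM on TMM-scaled totals. The tested genes hold 99.96% of the counts. Alternatives were DESeq2 1.42.0, RLE scaling, no filter, leaving out each library or the 4 libraries numbered 1, and the replicate number as a block. Same-numbered libraries deviated together from their group means (18 pairs, correlation 0.381 to 0.838). For 36 pairs of different number the correlation was -0.685 to 0.197. The number was therefore treated as pairing libraries in the blocked fits and in the counts of pairs, while the main fit did not use it.

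One list, of further activators and receptors, is not reported here as a whole. The genes and lists were chosen with earlier results of these data known. All 10 clock genes were included in each comparison; up to 4 genes of a further list were named where they passed; likeness was computed on log2(CPM + 0.5), for genes averaging 10 CPM or more. A 3 against 3 exact permutation test cannot go below p = 0.1, so none was run.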

Additional observations from a re-analysis of the deposited data

How the results depend on the processing

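Of 880 values recomputed for single clock genes, 858 kept their call, 13 no longer passed, 6 newly passed, 3 untested ones moved by more than 1 SD and none that passed reversed; 69 that passed in neither fit changed sign. The count of clock genes that passed between the sorts was 0 in WT and in TG in every alternative run except the average over both genotypes with the replicate block, added after seeing the data, where it was 1 (Dbp). In TG minus WT in CD25 High it was 0 in every alternative. For the replicate number it was 0 without the libraries numbered 1, and 2 to 3 when 1 library was left out. Counts over all genes moved more: High minus Low gave 6 genes in WT and 1 in TG, 192 and 198 with the replicate block, 44 and 58 with DESeq2, 7 and 3 without the filter, and 0 and 0 without the libraries numbered 1; leaving out 1 library gave 0 to 7 and 0 to 3. The block changed no call for a clock gene in the comparisons within a genotype or a sort. Cry1 passed for the replicate number with RLE scaling (edgeR adjusted p = 0.0432), with DESeq2 (adjusted p = 0.027) and without WT High replicate 2 (0.0497), and Nr1d2 without TG High replicate 3 (0.0409). Depth limits Per3 and Nr1d1 most, at 11 to 67 and 27 to 130 counts per library, and TG High replicate 2 has 6767828 counts in all.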
